A study of Homo sapiens with 12 samples.

Results

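Mitosis, spindle and kinetochore genes were followed through 4 states of lapatinib tolerance in BT474, a HER2-positive human breast cancer cell line. The 55 genes were taken by name from a table of 26485 genes. They comprise 7 mitotic kinases and cyclins, 4 phosphatases that act on cyclin-dependent kinases, 2 mitotic transcription factors, 6 genes of chromosome structure, 4 of the chromosomal passenger complex, 4 of the spindle checkpoint, 8 of the centromere and kinetochore, 9 kinesins, 4 spindle assembly factors, 4 regulators of anaphase and 3 of cytokinesis. All 55 were found and all passed the filter on low values. Lapatinib blocks the HER2 and EGFR kinases, and mRNA was sequenced from 3 libraries in each of 4 groups. Control cells were sampled on day 0. Drug-tolerant persisters (DTP) had 9 days, drug-tolerant expanded persisters (DTEP) 6 months and long-term resistant cells (LR) 9 months of 1 µM lapatinib. All groups carry the genotype label WT. The treatment label of the Control libraries also reads lapatinib at 1 µM, and they are read here as untreated because their titles call them Control at day 0. All results rest on a single cell line, and the study describes a condition's libraries as technical replicates in one place and as parallel cultures in another, so p-values may cover technical spread only.

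Cells build the mitotic machinery late in each cycle. CDK1 with cyclin B starts mitosis once a CDC25 phosphatase has removed its inhibitory phosphates, condensins compact the chromosomes, kinetochores attach them to the spindle, and the checkpoint restrains the anaphase-promoting complex until attachment is complete. Many of these genes are transcribed together in G2 and M phase through promoter elements called the CHR, bound by the MuvB complex with B-MYB or FOXM1, and the CCAAT box, bound by NF-Y. Resting cells keep such genes low.

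Values are normalised read counts, which are read counts divided by library size and scaled by trimmed means of M-values. Depth was 16383363 to 25030482 assigned reads per library, and 3 reads, the limit that a count of 0 allows, equal 0.124 to 0.173 normalised read counts. That limit covers counting error only. As a check of the cell label, ERBB2, KRT8, KRT18, KRT19, EPCAM and GATA3 stood at 132.9 or more in every library, while CD3E and HBB had no read. Such a check cannot tell BT474 from another HER2-positive breast cancer line. The sum of these 6 markers did move with the groups, from 9385 to 10117 for Control and 12026 to 14639 for DTP down to 4151 to 6021 for DTEP and 3931 to 5359 for LR. ERBB2, the gene of HER2, went from 6356 to 6833 in the Control libraries to 1244 to 2103 in the DTEP and 1555 to 1897 in the LR libraries, and GATA3 from 183 to 198 in Control to 943 to 1311 in DTEP. The 8 markers of other cell types summed to 53.00 to 64.1 in the Control and 50.7 to 61.5 in the DTP libraries, then to 82.8 to 125 for DTEP and 99.4 to 132 for LR, nearly all of it COL1A1, with PTPRC, COL1A2 and DCN at no more than 0.09199. Their part in the results was not tested. Reads were assigned with the default settings of the counter, which ignore strand and leave out reads that fall on 2 genes. This may lower the values of PLK1, CDC25C, CCNA2, FOXM1, NCAPG, SPC25, KIF15 and KIF20A, which overlap other genes read here (ERN2, FAM53C, EXOSC9, RHNO1 and ITFG2, LCORL, NOSTRIN, TMEM42 and CDC23). ERN2 averaged 0 in DTP, 8.29 in DTEP and 9.18 in LR, and FAM53C stood at 72.0 to 107 in all libraries. The libraries of a group were not equally close. For the 55 genes the median SD of log2(value + 1) was 0.0449 for Control, 0.191 for DTP, 0.339 for DTEP and 0.467 for LR, whereas all genes tested gave 0.0743, 0.168, 0.327 and 0.196. LR replicate 3 held the highest LR value for 46 of the 55 genes and LR replicate 2 the lowest for 33. DTEP replicate 3 was the lowest DTEP library for 37 genes and the highest for 13, among them ASPM, KIF14 and KIF15.

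The mitotic genes fell together in DTP cells and came back in DTEP cells. They took 0.594%, 0.594% and 0.583% of all assigned reads in the Control libraries, 0.0352%, 0.0399% and 0.0436% in DTP, 0.703%, 0.799% and 0.672% in DTEP and 0.297%, 0.251% and 0.448% in LR. The 4 groups did not overlap in this share. In bulk RNA, fewer cells in mitosis and less of these transcripts per cell cannot be told apart. The DTP mean was the lowest of the 4 groups for 54 genes, the exception being AURKA, whose lowest mean was in LR. DTEP had the highest mean for 43 genes and Control for 12. The LR mean lay below the DTEP mean for all 55 and below the Control mean for 50. Rescaling the libraries by median-of-ratios factors left these counts at 54, 41, 55 and 50. Going from low to high, the group means ran DTP, LR, Control, DTEP for 38 genes and DTP, LR, DTEP, Control for 11. A further 5 genes (NEK2, CDC25C, MKI67, KIF14 and KIF15) ran DTP, Control, LR, DTEP.

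**Figure D1:**
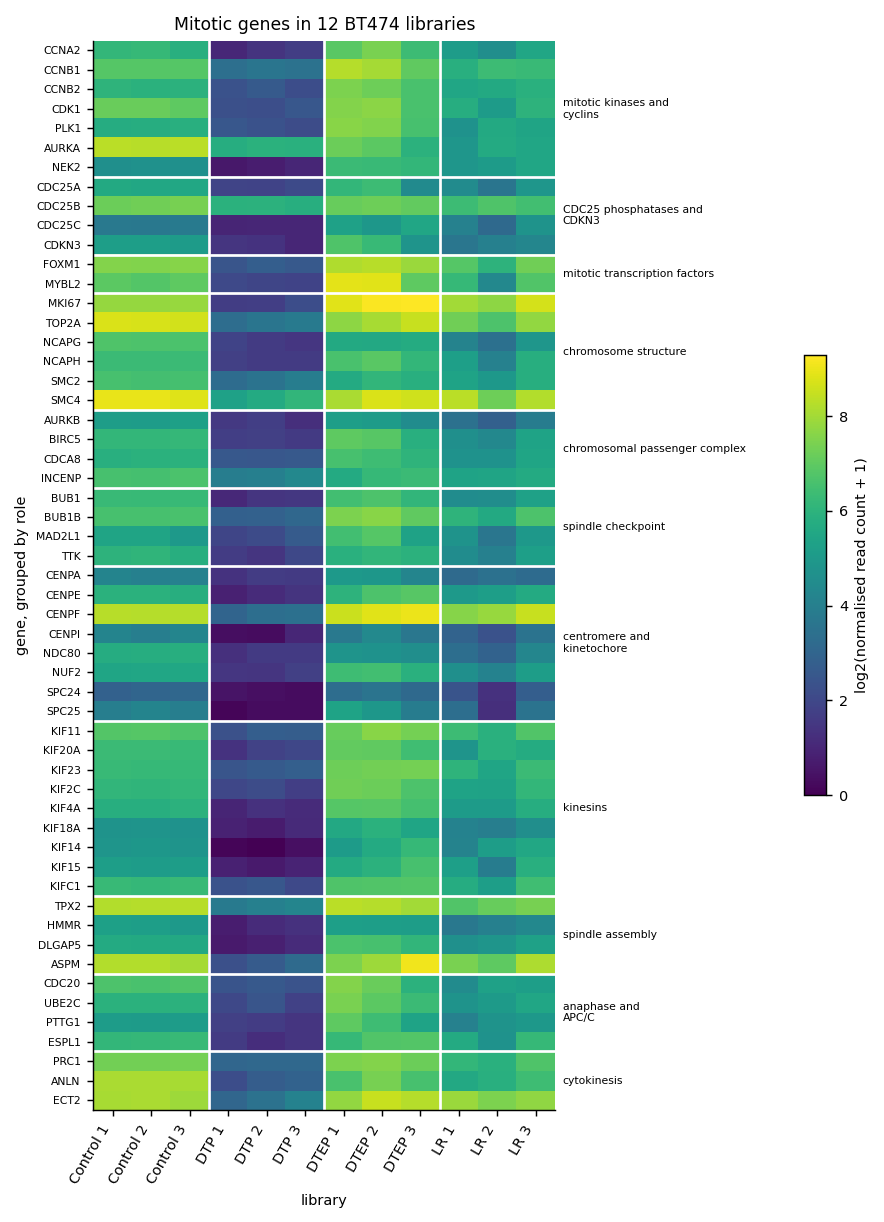
Level of each of the 55 genes (rows, grouped by role) in each of the 12 libraries (columns), as log2 of the normalised read count + 1. The 3 DTP columns are the darkest for every gene but AURKA, the Control columns are nearly alike, and the LR columns differ among themselves, with LR replicate 3 the highest for 46 genes.

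Differences were tested with limma on log2(value + 1) over all 13794 genes with enough reads, and called genes are those whose log2 change exceeded 2 in size with an adjusted p under 0.05. In DTP against Control, 54 of the 55 genes were called lower, where 3.9% of all genes tested were. All 55 passed the adjusted p (28.8% of all genes, lower), and all 55 had DTP libraries below every Control library (39.6% of all genes). The median log2 change of the 55 genes was -4.15, against -0.01 for all genes. The ratio of the Control mean to the DTP mean had a median of 24.8 and ran from 2.62 for CDC25B to 213 for KIF14, of which only 7 reads were found over the 3 DTP libraries. In DTEP against DTP, which shares the DTP libraries, 52 genes were called higher (8.13% of all genes), 55 passed the adjusted p (35.7%) and 55 had groups that did not overlap (34.5%). The median log2 change was 4.67, and the ratio of the means had a median of 32.6. AURKA, CDC25B and INCENP did not reach a log2 change of 2 on the way back. Every single library could be left out with 54 genes still called in the first and 52 to 53 in the second comparison.

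**Figure D2:**
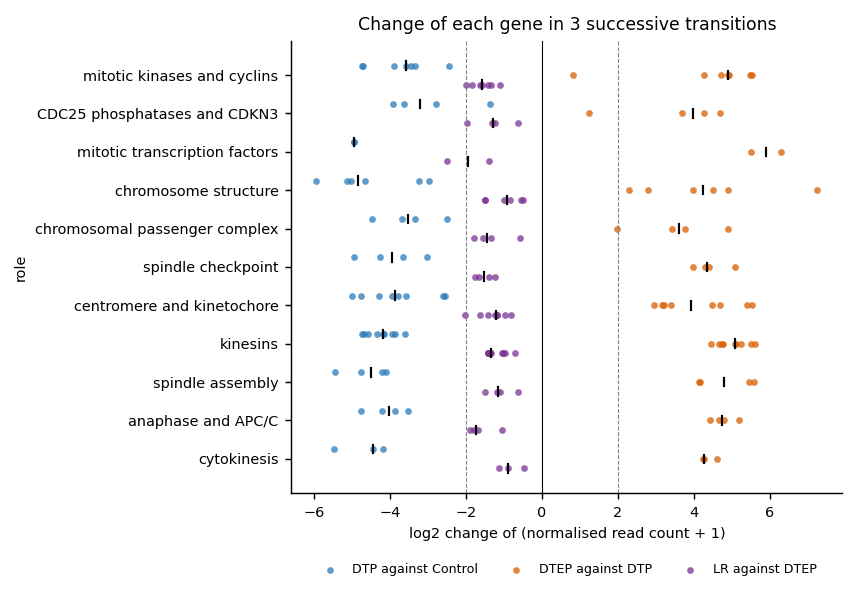
Log2 change of each gene (points) in DTP against Control (blue), DTEP against DTP (orange) and LR against DTEP (purple), by role, with the median of the role as a black bar and dashed lines at an absolute change of 2. Every role has its blue points to the left and its orange points to the right of 0, and the purple points lie between -2.49 and -0.47.

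Promoters were examined because the genes moved together. RefSeq windows on GRCh38.p14, from 250 bases before to 50 bases after each transcription start, were at hand for 49 of the 55 genes (61 windows, as some genes have several starts), with no entry for AURKA, FOXM1, BIRC5, TTK, TPX2 and UBE2C. Both strands were searched for the letters TTTGAA, the core of a CHR, which read TTCAAA from the opposite strand. The same was done for CCAAT, the reverse of which is spelled ATTGG. Matches of the 2 motifs may overlap. TTTGAA was found for 34 of the 49 genes (69.4%), against 18.2% of the 27305 genes with a window and 13.5% of the 10165 that were also tested here. CCAAT was found for 37 genes (75.5%, against 39.7% and 43.4%), and both in the same window for 26 (53.1%, against 7.26% and 5.66%). Counted over windows, 60.7% of the 61 held TTTGAA, against 15.2% of all 35116. KIF2C, CENPE, MYBL2 and CENPI had neither, which says only that these letters are not in these windows. The following stretches are the last 100 bases before the start of 5 genes with a single listed start, chosen after the search because each shows both motifs close to the start. They read 5′ to 3′ on the strand of the gene, with the letters of either motif, on either strand, in capitals.
MKI67: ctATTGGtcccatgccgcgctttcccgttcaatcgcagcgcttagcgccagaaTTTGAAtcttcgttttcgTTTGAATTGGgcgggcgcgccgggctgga
CCNB2: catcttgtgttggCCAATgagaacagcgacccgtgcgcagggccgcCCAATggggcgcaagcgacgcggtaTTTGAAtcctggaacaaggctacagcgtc
PLK1: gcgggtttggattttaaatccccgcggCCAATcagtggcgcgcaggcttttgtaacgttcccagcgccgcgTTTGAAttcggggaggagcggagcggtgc
KIF23: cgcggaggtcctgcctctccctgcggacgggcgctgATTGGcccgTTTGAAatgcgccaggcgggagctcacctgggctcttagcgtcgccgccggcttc
PRC1: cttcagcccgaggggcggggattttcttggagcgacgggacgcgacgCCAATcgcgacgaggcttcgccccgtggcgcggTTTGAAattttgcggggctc
On GRCh38.p14 they lie at chr10:128126424-128126523 on the minus strand (MKI67), chr15:59105046-59105145 on the plus strand (CCNB2), chr16:23678789-23678888 on the plus strand (PLK1), chr15:69414249-69414348 on the plus strand (KIF23) and chr15:90994536-90994635 on the minus strand (PRC1). The MKI67 stretch holds TTTGAA in 2 places, and the one nearer the start overlaps a CCAAT box of the opposite strand by 1 base. Taking the first listed window of each gene, the 42 TTTGAA matches had their centres at a median of -25.5 bases from the start and the 73 CCAAT matches at -71.5.

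**Figure D3:**
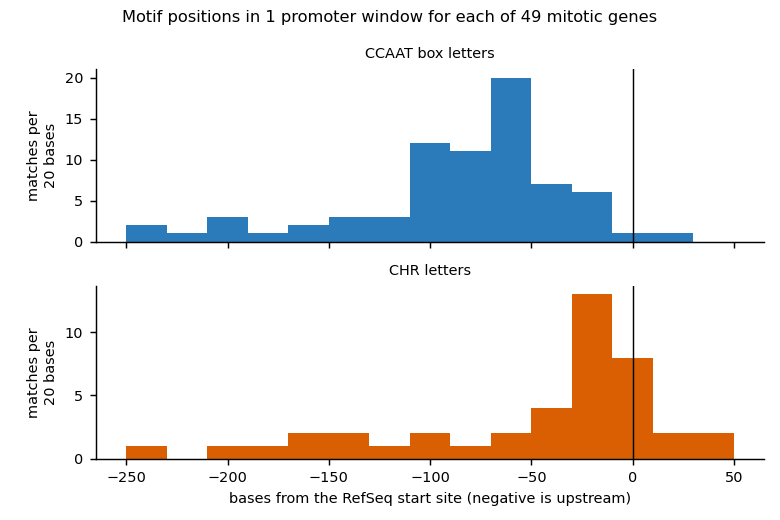
Number of motif matches per 20 bases (vertical axis) against the distance of the motif centre from the RefSeq start (horizontal axis, bases, negative is upstream), in the first listed window of each of 49 genes. CCAAT matches (top, 73) pile up around a median of -71.5 and TTTGAA matches (bottom, 42) nearer the start, around -25.5.

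Among the kinases and cyclins that drive entry into mitosis, all 7 were called lower in DTP and 6 were called higher in DTEP. CDK1, the mitotic kinase itself, had 143, 144 and 124 normalised read counts in Control, 3.86, 3.75 and 4.78 in DTP, 186, 201 and 98.1 in DTEP and 54.5, 33.4 and 63.2 in LR. The DTP libraries lay far below all others, and LR replicate 2 was the lowest of the remaining 9. Its log2 change was -4.75 (SE 0.27, limma adjusted p 2.16e-07) in DTP against Control and 4.92 (SE 0.27, limma adjusted p 3.26e-08) in DTEP against DTP. CCNB1, which codes for its partner cyclin B1, had 112, 114 and 114 normalised read counts in Control, 9.50, 11.2 and 10.4 in DTP, 306, 258 and 128 in DTEP and 56.5, 82.4 and 78.2 in LR. All 3 DTEP values exceeded Control and all 3 LR values lay below it, and DTEP replicate 3 stood closest to Control. The changes were -3.34 (SE 0.26, limma adjusted p 2.02e-06) and 4.26 (SE 0.26, limma adjusted p 7.38e-08) in the same order. For PLK1, a kinase needed from mitotic entry to cytokinesis, the values were 52.7, 53.7 and 57.1 normalised read counts in Control, 4.80, 4.10 and 3.46 in DTP, 198, 185 and 95.4 in DTEP and 25.4, 48.9 and 41.5 in LR. Again no DTEP library overlapped a Control library, and DTEP replicate 3 was the lowest DTEP library. PLK1 was 1.46 higher on the log2 scale in DTEP than in Control (SE 0.28, limma adjusted p 0.000771).

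AURKA, the aurora kinase of centrosomes and spindle poles, departed from this course. It had 317, 315 and 316 normalised read counts in Control, 54.1, 59.7 and 58.6 in DTP, 144, 121 and 61.5 in DTEP and 28.8, 50.5 and 44.6 in LR. Control lay above every other library, DTP at about the level of DTEP replicate 3, and all LR libraries below all DTP libraries. The log2 change was -2.44 (SE 0.27, limma adjusted p 2.82e-05) in DTP against Control but only 0.83 (SE 0.27, limma adjusted p 0.0176) in DTEP against DTP, and the second missed the threshold without DTEP replicate 1, DTEP replicate 2 or DTP replicate 1 (limma adjusted p 0.0731, 0.0682 and 0.0533). Against Control, AURKA remained lower in DTEP and LR, with log2 changes of -1.61 (SE 0.27, limma adjusted p 0.000303) and -2.94 (SE 0.27, limma adjusted p 1.86e-06), the lowest of the 55 genes in both comparisons. NEK2, a kinase of centrosome separation, stood at the other end, rising from a mean of 24.4 ± 0.692 in Control and 0.731 ± 0.231 in DTP to 75.7 ± 4.37 in DTEP, with 34.97 ± 8.01 in LR (SD, n = 3).

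**Figure D4:**
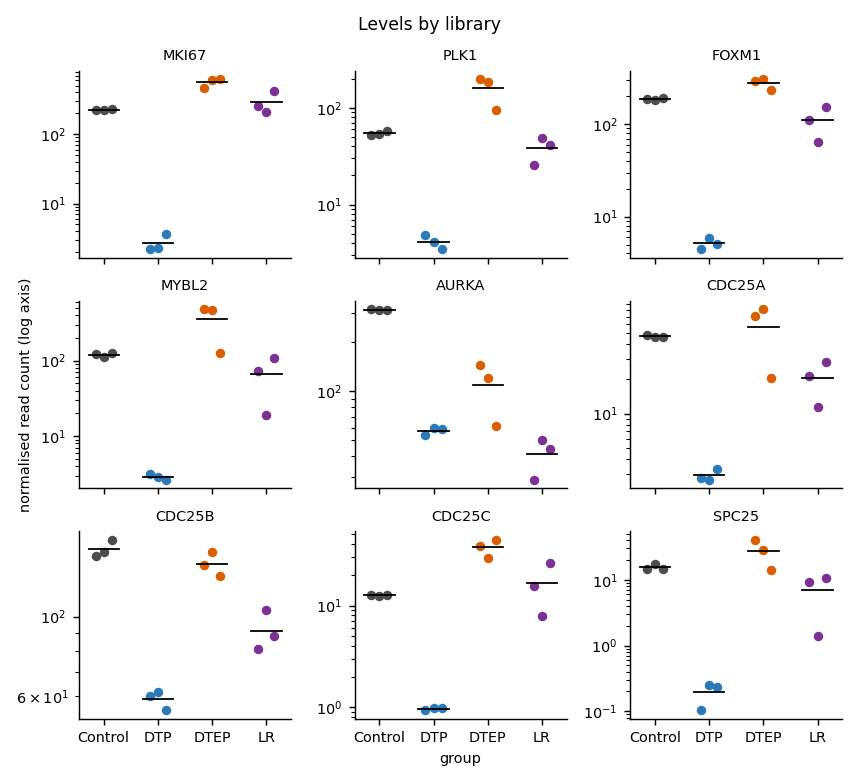
Normalised read counts of 9 genes in each library (points, log axis) by group, with the group mean as a line. AURKA is lowest in LR, CDC25B spans the narrowest range, and LR replicate 2 falls below the other LR libraries for MKI67, FOXM1, MYBL2, CDC25A, CDC25C and SPC25.

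The phosphatases of this set act on the inhibitory or activating phosphates of cyclin-dependent kinases, and the 3 CDC25 genes were not alike. CDC25A, which acts from the start of S phase, had 48.8, 46.7 and 46.3 normalised read counts in Control, 2.77, 2.67 and 3.28 in DTP, 70.7, 80.7 and 20.5 in DTEP and 21.2, 11.3 and 28.3 in LR. CDC25C, which acts on CDK1 at mitotic entry, had 12.6, 12.3 and 12.8 normalised read counts in Control, 0.939, 0.987 and 0.979 in DTP, 38.3, 29.1 and 44.2 in DTEP and 15.7, 7.91 and 26.1 in LR. For CDC25A the DTEP libraries spanned the Control level, whereas every DTEP value of CDC25C lay above Control. CDC25A did not pass the test in DTEP against Control (0.06, 95% interval -0.89 to 1.00), and CDC25C did (1.47, SE 0.32, limma adjusted p 0.00172). CDC25B, which starts CDK1 activation at centrosomes, had 147, 152 and 164 normalised read counts in Control, 60.2, 61.8 and 54.9 in DTP, 139, 151 and 130.2 in DTEP and 81.5, 105 and 88.3 in LR. Its DTP libraries were below all others but by far less than for any other gene, and DTEP overlapped Control. The changes of CDC25B were -1.37 (SE 0.12, limma adjusted p 5.79e-06) in DTP against Control and 1.24 (SE 0.12, limma adjusted p 3.24e-06) in DTEP against DTP, so it passed the adjusted p in both and was called in neither. CDKN3, a phosphatase that removes the activating phosphate of cyclin-dependent kinases, had 35.5, 36.1 and 33.4 normalised read counts in Control, 1.67, 1.58 and 0.979 in DTP, 106, 76.3 and 27.3 in DTEP and 11.4, 15.4 and 18.1 in LR. DTEP replicate 3 fell below Control while the other 2 DTEP libraries were above it, and all LR libraries were below Control. CDKN3 changed by -3.91 (SE 0.38, limma adjusted p 1.02e-05) and 4.69 (SE 0.38, limma adjusted p 6.19e-07).

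Both transcription factors were among the genes that moved most. FOXM1, which activates late cell cycle genes, had 186, 184 and 194 normalised read counts in Control, 4.44, 5.92 and 5.07 in DTP, 290.3, 308 and 234 in DTEP and 112, 63.9 and 154 in LR. The DTEP libraries were all above Control and the LR libraries all below it, without overlap between any 2 groups. Its changes were -4.95 (SE 0.25, limma adjusted p 9.17e-08) from Control to DTP, 5.4997 (SE 0.25, limma adjusted p 7.39e-09) from DTP to DTEP and -1.40 (SE 0.25, limma adjusted p 0.0111) from DTEP to LR. MYBL2, which codes for the MuvB partner B-MYB, had 122, 111 and 127 normalised read counts in Control, 3.18, 2.86 and 2.65 in DTP, 476, 469.6 and 127 in DTEP and 73.8, 18.98 and 108 in LR. In DTEP replicate 3 it was at the Control level, and in LR replicate 2 it was far below the other LR libraries. MYBL2 changed by -4.96 (SE 0.57, limma adjusted p 3.42e-05), 6.30 (SE 0.57, limma adjusted p 1.5e-06) and -2.49 (SE 0.57, limma adjusted p 0.0302) in the 3 successive transitions, and the last was called. That call was lost without any 1 Control or LR library other than LR replicate 3, without DTP replicate 2 and without DTEP replicate 1 or 2 (limma adjusted p 0.0511 to 0.126), and also with no filter (0.0528), group weights (0.0668) or the 6 compared libraries alone (0.257).

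In the group of chromosome structure, MKI67 had the largest changes in log2(value + 1) of all 55 genes in the first 2 transitions. By the ratio of the Control to the DTP mean, KIF14 ranked first. MKI67 codes for a coat protein of mitotic chromosomes that is used as a proliferation marker. It had 221, 221 and 229.8 normalised read counts in Control, 2.19, 2.32 and 3.63 in DTP, 463, 604 and 622 in DTEP and 255, 207 and 413 in LR. DTEP exceeded Control in every library, and LR straddled Control. The log2 changes were -5.94 (SE 0.23, limma adjusted p 3.02e-08) and 7.26 (SE 0.23, limma adjusted p 5.33e-10) in the first 2 transitions. SMC2 and SMC4, the ATPase subunits of both condensins, moved less than the other genes of this group. SMC2 had 94.4, 90.8 and 93.3 normalised read counts in Control, 8.72, 10.5 and 14.2 in DTP, 49.8, 68.3 and 57.5 in DTEP and 40.6, 30.2 and 55.6 in LR. SMC4 had 499.6, 508 and 459 normalised read counts in Control, 38.3, 49.9 and 67.4 in DTP, 276, 428 and 390.4 in DTEP and 322, 151 and 294 in LR. Neither gene had a DTEP mean as high as Control, and the DTEP and LR libraries of each overlapped. Their changes were -2.97 and -3.25 in DTP against Control (limma adjusted p 1.34e-06 and 4.21e-06) and 2.31 and 2.80 in DTEP against DTP (limma adjusted p 2.42e-06 and 3.26e-06). NCAPG and NCAPH, subunits of condensin I alone, changed by -5.04 and -4.67 in DTP against Control (limma adjusted p 1.5e-07 and 1.18e-06). TOP2A, the topoisomerase that untangles sister chromatids, averaged 419 ± 12.97 in Control and 11.1 ± 2.13 in DTP, and then 279 ± 76.98 in DTEP and 159 ± 58.7 in LR (SD, n = 3).

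The chromosomal passenger complex corrects faulty attachments through its kinase, AURKB. BIRC5, which codes for its subunit survivin, had 69.7, 70.5 and 72.6 normalised read counts in Control, 2.30, 2.42 and 1.96 in DTP, 126, 116 and 57.4 in DTEP and 23.95, 19.1 and 40.5 in LR. INCENP, which codes for its scaffold, had 93.7, 93.4 and 98.8 normalised read counts in Control, 14.3, 14.96 and 19.003 in DTP, 50.4, 73.1 and 78.7 in DTEP and 40.6, 42.2 and 50.4 in LR. BIRC5 in DTEP replicate 3 dropped below Control, and INCENP was below Control in all other libraries and had overlapping DTEP and LR values. BIRC5 changed by -4.48 (SE 0.30, limma adjusted p 6.04e-07) and 4.89 (SE 0.30, limma adjusted p 6.77e-08). INCENP changed by -2.51 (SE 0.18, limma adjusted p 9.27e-07) and 1.99 (SE 0.18, limma adjusted p 1.29e-06). The second was close to the threshold, passing 2 with a pseudocount of 0.1 (2.05) or 0.5 (2.02), in edgeR (2.05), and without DTEP replicate 1 (2.18) or DTP replicate 3 (2.11). AURKB and CDCA8, which codes for borealin, changed by -3.68 and -3.35 in DTP against Control (limma adjusted p 1.08e-06 and 2.94e-07) and by 3.44 and 3.78 in DTEP against DTP (limma adjusted p 4.28e-07 and 2.84e-08).

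All 4 spindle checkpoint genes were called in both transitions. BUB1, a kinetochore kinase, had 78.004, 76.3 and 75.4 normalised read counts in Control, 1.10, 1.73 and 1.84 in DTP, 88.8, 103 and 68.5 in DTEP and 21.7, 22.5 and 38.5 in LR. MAD2L1, which codes for the inhibitor MAD2, had 41.5, 41.6 and 31.8 normalised read counts in Control, 2.87, 3.31 and 5.41 in DTP, 86.9, 114 and 40.1 in DTEP and 26.2, 11.6 and 29.8 in LR. BUB1 kept DTEP near Control and LR well below, and MAD2L1 varied more, with DTEP replicate 3 and LR replicate 2 each far under the rest of their groups. The changes of BUB1 were -4.94 (SE 0.23, limma adjusted p 5.69e-08) and 5.10 (SE 0.23, limma adjusted p 6.96e-09), and those of MAD2L1 were -3.04 (SE 0.40, limma adjusted p 7.55e-05) and 3.97 (SE 0.40, limma adjusted p 3.11e-06). BUB1B and TTK, the genes of BUBR1 and MPS1, changed by -3.65 and -4.27 in DTP against Control (limma adjusted p 4.55e-07 and 2.76e-07).

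The 8 centromere and kinetochore genes were all called lower in DTP and all called higher in DTEP. CENPF, a large kinetochore protein of G2 and M phase, had 310.5, 304 and 301 normalised read counts in Control, 7.05, 9.18 and 9.79 in DTP, 367, 464 and 515 in DTEP and 194, 233 and 364 in LR. CENPA, the histone variant that marks centromeres, had 17.02, 15.4 and 15.98 normalised read counts in Control, 1.57, 2.17 and 2.02 in DTP, 31.4, 28.998 and 17.5 in DTEP and 8.24, 9.91 and 8.43 in LR. DTEP exceeded Control in every library for both, although CENPA in DTEP replicate 3 was only just above it, and CENPF in LR straddled Control. CENPF changed by -4.996 (SE 0.21, limma adjusted p 5.16e-08) and 5.54 (SE 0.21, limma adjusted p 2.28e-09), and CENPA by -2.56 (SE 0.21, limma adjusted p 3.29e-06) and 3.17 (SE 0.21, limma adjusted p 1.43e-07). SPC25, a subunit of the NDC80 complex that binds microtubules, had 14.7, 17.2 and 14.9 normalised read counts in Control, 0.104, 0.247 and 0.230 in DTP, 40.6, 28.9 and 14.1 in DTEP and 9.17, 1.38 and 10.7 in LR. The DTP values rest on 11 reads in all, and LR replicate 2 lay far below the other LR libraries. SPC25 changed by -3.80 (SE 0.51, limma adjusted p 9.53e-05), 4.48 (SE 0.51, limma adjusted p 9.63e-06) and -2.02 (SE 0.51, limma adjusted p 0.04) in the 3 transitions, and the last was called. The call remained without DTEP replicate 3 or LR replicate 3 and was lost without each of the other 10 libraries (limma adjusted p 0.0558 to 0.139). It was lost with no filter, group weights, the replicate block or the 6 compared libraries alone (limma adjusted p 0.0537 to 0.273). Median-of-ratios scaling, edgeR and DESeq2 also lost it, with changes of -1.98, -1.90 and -1.93. The subunits of this complex differed against Control. NDC80 averaged 54.1 ± 1.70 in Control, 25.1 ± 2.08 in DTEP and 11.4 ± 6.15 in LR, and its partner NUF2 44.2 ± 1.37, 76.001 ± 15.8 and 24.8 ± 9.36 (SD, n = 3). In DTEP against Control NDC80 was lower, at -1.08 (SE 0.27, limma adjusted p 0.00496) on the log2 scale, and NUF2 was higher, at 0.75 (SE 0.25, limma adjusted p 0.0213), which did not hold without DTEP replicate 1 or 2 or Control replicate 1 or 2 (limma adjusted p 0.0573 to 0.0784).

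The 9 kinesins were all called in both transitions, with log2 changes from -4.73 to -3.60 in DTP against Control and from 4.46 to 5.61 in DTEP against DTP, and for all 9 every DTEP library lay above every Control library (33.2% of all genes). KIF4A, a motor that travels along chromosomes and the midzone, had 56.2, 55.3 and 60.8 normalised read counts in Control, 0.939, 1.48 and 1.21 in DTP, 112, 117 and 92.4 in DTEP and 33.2, 33.4 and 53.9 in LR. KIF23, a subunit of centralspindlin in the midzone, had 75.8, 73.2 and 72.8 normalised read counts in Control, 4.44, 5.18 and 5.99 in DTP, 149.5, 158 and 163 in DTEP and 65.3, 42.9 and 79.1 in LR. Both had LR libraries from well under to about the Control level. KIF4A changed by -4.73 (SE 0.20, limma adjusted p 4.79e-08) and 5.61 (SE 0.20, limma adjusted p 1.14e-09), and KIF23 by -3.60 (SE 0.19, limma adjusted p 1.2e-07) and 4.68 (SE 0.19, limma adjusted p 3.43e-09). Against Control, KIF23, KIF2C, KIF4A, KIF18A and KIF11 passed the adjusted p in DTEP (1.08, 0.93, 0.88, 0.89 and 0.59). KIF11 lost this without DTEP replicate 2 or any 1 of the Control libraries (limma adjusted p 0.0656 to 0.135). KIF14, KIF15, KIF20A and KIFC1 did not pass, with limma adjusted p of 0.0569, 0.0698, 0.125 and 0.088.

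The 4 spindle assembly factors were all called in both transitions as well. HMMR, a microtubule-binding protein of spindle poles, had 38.1, 36.3 and 31.3 normalised read counts in Control, 0.678, 1.23 and 1.497 in DTP, 36.98, 35.96 and 35.3 in DTEP and 11.998, 15.6 and 19.2 in LR. ASPM, which focuses the spindle poles, had 297, 299 and 262 normalised read counts in Control, 3.81, 5.28 and 8.29 in DTP, 173, 243 and 544 in DTEP and 168, 126 and 284 in LR. The 3 DTEP values of HMMR were nearly equal and inside the Control range, whereas ASPM in DTEP replicate 3 was far above the other DTEP libraries. HMMR changed by -4.10 (SE 0.20, limma adjusted p 8.35e-08) and 4.14 (SE 0.20, limma adjusted p 1.34e-08), and ASPM by -5.45 (SE 0.39, limma adjusted p 1.03e-06) and 5.44 (SE 0.39, limma adjusted p 2.45e-07). TPX2, the activator of aurora A on the spindle, and DLGAP5, which stabilises spindle fibres, changed by -4.22 and -4.77 in DTP against Control (limma adjusted p 3.02e-08 and 5.16e-08).

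So were the 4 genes of anaphase and mitotic exit. ESPL1, which codes for the protease separase, had 69.8, 70.99 and 75.6 normalised read counts in Control, 2.04, 1.33 and 1.67 in DTP, 74.01, 108 and 109 in DTEP and 50.5, 25.7 and 73.7 in LR. PTTG1, which codes for its inhibitor securin, had 34.5, 33.1 and 34.4 normalised read counts in Control, 2.35, 2.12 and 1.67 in DTP, 126, 84.2 and 41.3 in DTEP and 15.9, 26.4 and 29.6 in LR. DTEP replicate 1 was the lowest DTEP library for ESPL1 and the highest for PTTG1. ESPL1 changed by -4.78 (SE 0.30, limma adjusted p 3.97e-07) and 5.18 (SE 0.30, limma adjusted p 4.73e-08), and PTTG1 by -3.53 (SE 0.34, limma adjusted p 8.88e-06) and 4.67 (SE 0.34, limma adjusted p 2.49e-07). Its near-identical copies PTTG2 and PTTG3P were listed at no more than 0.0957 in any library. How reads that match several copies were handled was not checked. CDC20 and UBE2C, the activator and the ubiquitin-conjugating enzyme of the anaphase-promoting complex, changed by -4.21 and -3.86 (limma adjusted p 2.31e-06 and 8.95e-07).

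For cytokinesis, ANLN codes for the ring scaffold anillin, and it had 274, 277 and 269 normalised read counts in Control, 3.60, 5.68 and 6.51 in DTP, 97.98, 164 and 94.02 in DTEP and 47.9, 57.6 and 83.3 in LR. PRC1, which bundles midzone microtubules, had 156, 156 and 160.1 normalised read counts in Control, 7.46, 7.75 and 7.89 in DTP, 173, 187 and 144 in DTEP and 68.99, 58.8 and 105 in LR. ECT2, the exchange factor that activates RhoA at the cleavage site, had 266, 274 and 239.8 normalised read counts in Control, 7.46, 10.4 and 16.2 in DTP, 217, 358 and 305 in DTEP and 237, 176 and 211 in LR. ANLN stayed below Control in all DTEP and LR libraries, PRC1 returned to about the Control level in DTEP, and ECT2 in LR reached nearly as high as in Control. The changes in DTP against Control were -5.48 (SE 0.25, limma adjusted p 5.69e-08) for ANLN, -4.19 (SE 0.18, limma adjusted p 5.16e-08) for PRC1 and -4.46 (SE 0.24, limma adjusted p 1.45e-07) for ECT2. In DTEP against DTP they were 4.24, 4.27 and 4.61 (limma adjusted p 5.75e-08, 4.82e-09 and 2.47e-08).

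Whether single genes fell more or less than the rest was tested by subtracting, in each library, the mean log2 value of the other mitotic genes. In DTP against Control, 27 genes departed from that mean at an adjusted p below 0.05, 16 by falling more and 11 by falling less. On the scale of log2(value + 1), those that fell less were led by CDC25B (2.72), AURKA (1.63), INCENP (1.57), CENPA (1.51) and SPC24 (1.46, differences in log2 change). Those that fell more were led by MKI67 (-1.93), ANLN (-1.47) and ASPM (-1.43). In DTEP against DTP, 29 genes departed, from AURKA (-3.67) and CDC25B (-3.25) below the mean to MYBL2 (1.90) and MKI67 (2.88) above it. Since the reference itself moved strongly, 99.2% and 98.6% of all genes departed from it, so that the adjustment over all genes changed the p-values of these genes very little. Genes with DTP values below 1, such as SPC24 (0.418, 0.296 and 0.23) and CDC25C, have their changes understated by the added 1. The place of SPC24 among the genes that fell less may therefore rest on the added 1.

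DTEP cells were then compared with Control, to see how far the genes returned. At the adjusted p alone, 20 genes were higher (29.5% of all genes) and 6 were lower (28.7%), and 29 did not pass. The largest change of either sign was the -1.61 of AURKA, so none of the 55 could be called at any p, where limma called 4.43% of all genes higher and 6.2% lower. The median log2 change was 0.52, and 16 genes had a 95% interval within 1 of 0. A share of higher genes near that of all genes does not set the mitotic genes apart. The highest changes that passed were those of NEK2 (1.59, SE 0.18, limma adjusted p 1.22e-05), CDC25C, PLK1 and MKI67 (1.31, SE 0.23, limma adjusted p 0.000414). The 6 that were lower were AURKA, ANLN (-1.25), NDC80, NCAPG (-1.05), SMC2 (-0.67) and INCENP (-0.52), with limma adjusted p from 0.000303 for AURKA to 0.0248 for INCENP. SMC2 and INCENP no longer passed without DTEP replicate 1 or without any 1 Control library (limma adjusted p 0.0519 to 0.0916). Leaving out single libraries moved the count of higher genes from 13, without DTEP replicate 2, to 26.

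LR cells held lower levels than Control for most of these genes. At the adjusted p alone 36 were lower (32.6% of all genes) and 1, NEK2 (0.48, SE 0.18, limma adjusted p 0.0361), was higher (30.2% of all genes). NEK2 did not pass without LR replicate 2 or 3 or any 1 Control library (limma adjusted p 0.0506 to 0.151). Those called lower were AURKA, NCAPG (-2.54, SE 0.28, limma adjusted p 7.6e-06), NDC80 (-2.26, SE 0.27, limma adjusted p 1.77e-05) and ANLN (-2.14, SE 0.25, limma adjusted p 1.52e-05), 4 genes where 7.8% of all genes were called lower. ANLN fell under the call without LR replicate 1 (-1.97) and NDC80 without LR replicate 2 (-1.97), both still past the adjusted p. These 4 are the same genes that led the lower side in DTEP, and both comparisons use the Control libraries. The median log2 change was -0.85, and 14 genes had a 95% interval within 1 of 0. By role, all 4 chromosomal passenger genes and 7 of 8 centromere and kinetochore genes passed as lower, but 3 of 9 kinesins did. Leaving out 1 library at a time gave 29 to 44 genes past the adjusted p in either direction.

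**Figure D5:**
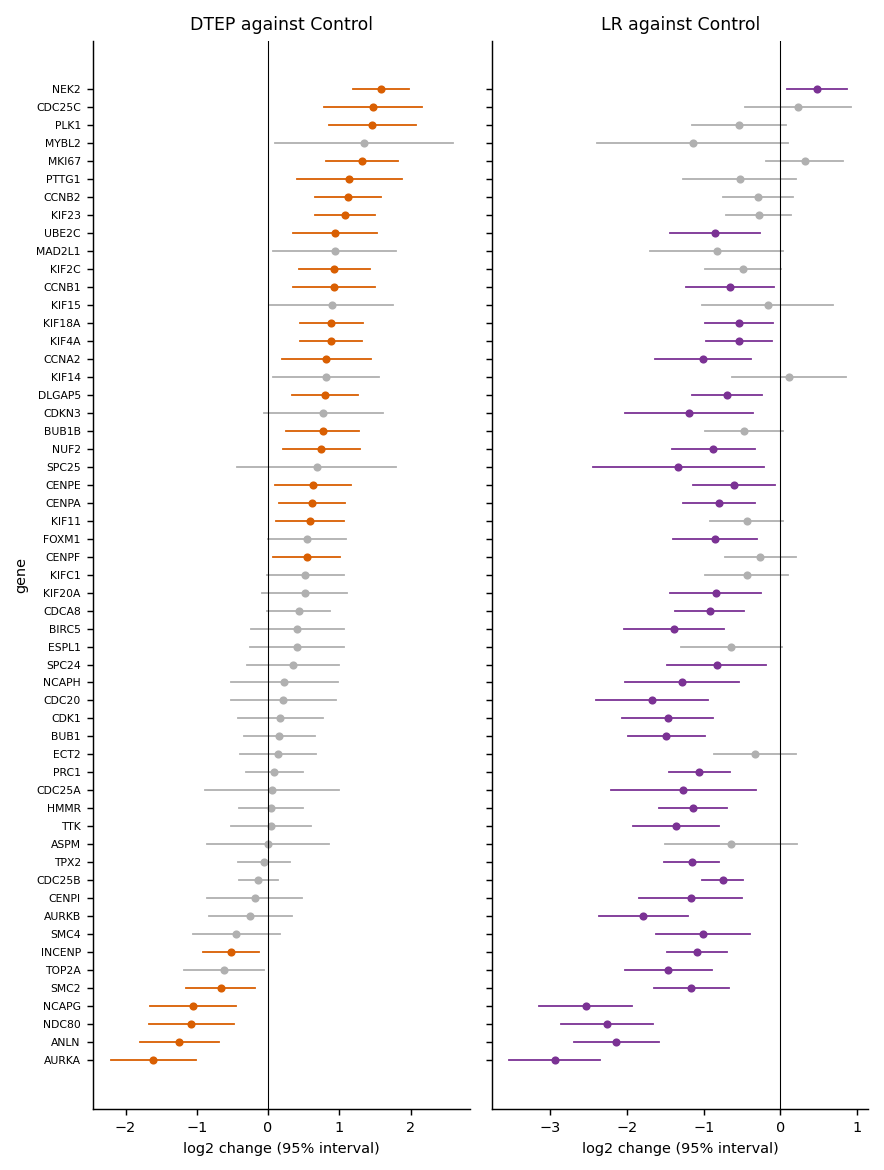
Log2 change with its 95% interval for each of the 55 genes in DTEP (left) and LR (right) against Control, sorted by the DTEP change. Coloured genes passed an adjusted p of 0.05 and grey ones did not, with 20 higher and 6 lower on the left and 1 higher and 36 lower on the right. AURKA, ANLN, NDC80 and NCAPG are at the bottom of both panels.

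From DTEP to LR every one of the 55 genes had a negative log2 change, with a median of -1.35 against -0.07 for all genes. At the adjusted p alone 43 genes were lower (4.31% of all genes), 46 had LR libraries below every DTEP library (13.4%), and 2, MYBL2 and SPC25, were called lower (0.457%). All 7 kinases and cyclins and all 4 checkpoint genes passed, compared with 3 of 6 genes of chromosome structure and 1 of 3 of cytokinesis. PLK1 (-1.996, SE 0.28, limma adjusted p 0.00551), CDKN3 (-1.97, SE 0.38, limma adjusted p 0.0162) and CDC20 (-1.89, SE 0.34, limma adjusted p 0.0111) came closest to the threshold of 2. The smallest changes belonged to ECT2 (-0.47, SE 0.24, limma adjusted p 0.183), SMC2 (-0.49, SE 0.22, limma adjusted p 0.139) and SMC4 (-0.56, SE 0.28, limma adjusted p 0.174), which did not pass. Relative to the mean of the other mitotic genes, ECT2 (0.84), SMC2 (0.82), SMC4 (0.76), INCENP (0.74) and CDC25B (0.70) fell less and MYBL2 (-1.21), PLK1 (-0.71) and CCNA2 (-0.54) fell more, which makes 8 that departed (89.4% of all genes did). These counts moved with single libraries. Without LR replicate 1, DTEP replicate 1 or 2, DTP replicate 2 or any 1 Control library, limma called 0 genes. In these fits 1 or 2 were past a change of 2 at an unadjusted p below 0.05. Over all libraries, edgeR and DESeq2 each called 2 genes, among them MYBL2 but not SPC25. Without DTEP replicate 3, 10 genes were called and 47 passed the adjusted p, and without LR replicate 3 it was 7 and 48. Without DTEP replicate 2 the adjusted p was passed by 19 genes and without LR replicate 1 by 26. With the spread taken from these 6 libraries alone, 0 genes passed limma's adjusted p (smallest 0.16) and 49 were below an unadjusted p of 0.05. edgeR's quasi-likelihood test on the recovered reads of all 12 libraries passed 42 and DESeq2 48, beside the 43 of limma. Neither tool was run on the 6 libraries alone.

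A wider list of other genes with a part in mitosis had smaller median changes. That list also takes in genes not specific to mitosis, such as RHOA, MYH9 and KIF5B, so its medians depend on how it was drawn up. Of 113 other mitotic genes, all tested, 42 were called lower in DTP than in Control, 81 passed the adjusted p as lower and 10 as higher (25.2% of all genes), with a median log2 change of -1.34. KNL1 (-5.43, SE 0.38, limma adjusted p 9e-07), a kinetochore scaffold, CIT (-4.89, SE 0.32, limma adjusted p 4.59e-07), a cytokinesis kinase, and PBK (-4.83, SE 0.35, limma adjusted p 1.09e-06), a mitotic kinase, were the lowest. The most raised were CENPT (1.28, SE 0.15, limma adjusted p 3.75e-05), a kinetochore anchor, LIN37 (0.90, SE 0.18, limma adjusted p 0.00159), a subunit of MuvB, and PMF1 (0.72, SE 0.20, limma adjusted p 0.00912), a subunit of the MIS12 complex. KNL1 had 58.6, 56.3 and 58.3 normalised read counts in Control, 0.157, 0.346 and 0.633 in DTP, 40.1, 96.6 and 121 in DTEP and 68.6, 37.9 and 93.7 in LR. CENPT had 45.6, 45.3 and 48.7 normalised read counts in Control, 135, 112 and 98.2 in DTP, 72.6, 81.9 and 93.8 in DTEP and 83.4, 73.3 and 93.99 in LR. Thus within the kinetochore KNL1 followed the 8 genes above and CENPT moved the opposite way, in both cases without overlap between DTP and Control. Of 20 other genes of the anaphase-promoting complex and of mitotic exit, 1 was called lower and the median change was 0.03. Of 7 other genes of mitotic entry, mostly kinases, 5 were called lower, with a median of -3.24. In DTEP against DTP, 45 of the 113 were called higher and 1 lower, where 7.02% of all genes were (median 1.52). In LR against DTEP, 36 passed the adjusted p as lower and 1, CENPM (-2.02, SE 0.56, limma adjusted p 0.0489), was called, followed by PKMYT1 (-1.95) and FAM83D (-1.88). NUMA1 (0.72), CENPC (0.70) and KIF3A (0.60) had the highest changes and did not pass (limma adjusted p 0.122, 0.0858 and 0.114).

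By comparison, 44 DNA replication genes changed by a median of -2.12 in DTP against Control, with 26 called lower, and by 2.27 in DTEP against DTP, with 26 called higher. In LR against DTEP all 44 had a negative change, with 13 past the adjusted p, and their median of -1.35 equals that of the mitotic genes. In LR against Control 33 of the 44 passed as lower, with a median of -1.40. TTTGAA was found in the promoter windows of 1 of 37 replication genes (2.7%) and of 36 of 95 other mitotic genes (37.9%), and CCAAT in those of 59.5% and 63.2%. No test compared the lists with each other.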

How the data were processed

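The deposited values are a signal per gene and library. The authors aligned mRNA reads to hg38 with Rsubread, counted them over RefSeq genes and scaled them with edgeR, and their processing notes also name bcl2fastq (the versions of edgeR and bcl2fastq are not given in the sources used here). They equal edgeR's trimmed-mean counts per library size to within 4.97e-10, and reads were recovered whole from 100% of 199680 values above 0 (tolerance 0.001 reads). Here log2(value + 1) was fitted with limma 3.58.1 (R 4.3.3, trended empirical Bayes, all 12 libraries, 4 groups) over 13794 genes that reached 1 in 3 or more libraries, with Benjamini-Hochberg adjustment over all of them. edgeR 4.0.16 and DESeq2 1.42.0 on the recovered reads were alternatives, beside other pseudocounts, filters, scaling, group weights, a replicate block and each library left out. The steps were also run on simulated data. There each gene had the same dispersion in all groups, so the unequal spread among the groups was not covered. Log2 changes understate those of low genes. The members and lists were chosen with earlier results of these data known. Values in every library are printed for the genes with the largest and smallest absolute change of each role in DTP against Control, those not called in the first 2 transitions, those called in LR against DTEP, the 5 that departed most from the mean there, and PLK1, CCNB1, FOXM1, CDC25A and CDC25C. Of the other mitotic genes, the 3 highest and 3 lowest in DTP against Control and in LR against DTEP are named. Of 18 pairs of same-numbered libraries, 2 correlated above r = 0.1, namely DTP with DTEP for replicate 1 (0.359) and replicate 3 (0.335). These were not set against pairs of unlike number, so whether the numbers pair the libraries cannot be told. The main fit did not use the numbers.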

Additional observations from a re-analysis of the deposited data

How the results depend on the processing

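The counts for DTP against Control (54 called lower) and DTEP against DTP (52 called higher) stayed within 1.5 times of these values under each alternative that was run, edgeR (54 and 53) and DESeq2 (54 and 52) included, and no log2 change that passed the test, among the genes shown by library, turned its sign. Changes that did not pass could, such as those of ASPM (-0.47 to 0.35) and CDC25A (-0.30 to 0.66) in DTEP against Control and CDC25C (-0.15 to 0.65) in LR against Control. LR against DTEP depended on the processing. Of the 2 genes called lower there, the count became 4 with a pseudocount of 0.1 or 0.5, 1 with median-of-ratios scaling, 39 with an absolute log2 change above 1, and 0 with no filter, with weights by group or with only the 6 libraries compared, where 2 genes were below an unadjusted p of 0.05 with a change past 2 in each case. edgeR and DESeq2 each called 2, among them MYBL2 but not SPC25. Leaving out single libraries gave 0 to 10 genes called (10 without DTEP replicate 3, 7 without LR replicate 3, and 0 in limma without LR replicate 1, DTEP replicate 1 or 2, DTP replicate 2 or any 1 Control library, where 1 or 2 genes were below an unadjusted p of 0.05 with a change past 2) and 19 to 48 past the adjusted p alone (19 without DTEP replicate 2). The 43 past the adjusted p alone became 24 with weights by group and 0 in limma with only the 6 libraries compared. DTEP against Control gave 13 to 26 higher genes with single libraries left out, and LR against Control 29 to 44. Genes that departed from the mean of the others went from 27 to 41 in DTP against Control and from 8 to 2 in LR against DTEP with weights by group, and from 2 (without DTEP replicate 1) to 21 (without DTEP replicate 3) in LR against DTEP with single libraries left out. The cause was not tested. The replicate block gave 54, 52 and 1 genes called in the 3 transitions, where the fit without it gave 54, 52 and 2. Same-numbered libraries correlated at -0.441 to 0.359. Median-of-ratios scaling moved the median change of all genes by at most 0.10. Depth limits the DTP level of KIF14 (7 reads in all) and SPC25 (11 reads), and 4 of the 55 genes had fewer than 10 reads in a DTP library.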

Other observations

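Genes beside some of the mitotic genes had lower levels in DTEP and LR than in Control. For each of the 55 genes, the median log2 change was taken over the other tested genes whose RefSeq start on GRCh38.p14 lies within 1 Mb, a description chosen after the values were seen. Over the 54 genes with such a neighbour, the median of these medians was -0.06 in DTEP against Control and 0.04 in LR against Control. AURKA, at chr20:56369390-56392215, had 9 neighbours. limma passed 7 of them as lower in DTEP (28.7% of all genes) and 8 in LR (32.6% of all genes), none as higher. Their median change was -1.56 in DTEP against Control and -1.93 in LR against Control, but 0.39 in DTP against Control. TOP2A, at chr17:40388525-40417896 and near ERBB2, had 31 neighbours, of which 27 passed as lower in either comparison. Their medians were -2.19 in DTEP, -2.63 in LR and 0.17 in DTP. TOP2A itself did not pass the adjusted p in DTEP against Control, but it passed as lower in LR against Control. NDC80, at chr18:2571557-2616635, had 7 neighbours, of which 6 passed as lower in either comparison, with medians of -1.24 in DTEP, -1.59 in LR and 0.81 in DTP.

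CDK1, with 3 neighbours at a median of -2.64 in DTEP and -2.19 in LR, was the remaining gene with a neighbour median below -1, which made 4 of the 55 in each comparison. CDK1 itself did not pass in DTEP against Control, whereas all its LR libraries lay below every Control library. In the other direction, BUB1, MAD2L1, CENPF and KIF14 had neighbour medians above 1 in LR against Control (1.43, 1.05, 1.56 and 1.09) and none of the 55 did in DTEP. The other genes called lower in LR against Control had neighbours nearer to 0, with a median of -0.40 over 6 genes for NCAPG and -0.79 over 2 genes for ANLN. Copy number was not measured, and its part in these levels was not tested.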
